A study of Mus musculus with 11 samples.

Results

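Contacts between chromosomes 12, 15, 16, 18 and 19 were examined, the chromosomes that carry nucleolus organisers near the centromere in C57BL/6 mice. Every pair among these 5 was taken, which gave 10 of the 171 pairs of autosomes, and the rule itself uses no contact value. The comparison set was the 91 pairs among the other 14 autosomes, and the remaining 70 pairs were mixed. A contact was used when it joined 2 autosomes and both ends lay at position 13000001 or beyond. This window leaves out the first 10 Mb of assembled sequence, since no end of an ensemble or pool trans contact lay below 3 Mb.

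Nucleolus organisers are tandem arrays of the genes for ribosomal RNA, transcribed by RNA polymerase I. A nucleolus forms around active arrays, and arrays of several chromosomes can share a nucleolus, so the arms next to them may come to lie near each other. Mouse chromosomes are acrocentric, with the centromere at the start of the numbered sequence, and their centromeric heterochromatin also gathers in clusters called chromocentres. The contacts described here lie on the arms beyond the arrays, whose own activity and position were not measured.

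Hi-C ligates DNA fragments that are near each other in fixed nuclei, and a contact records 2 fragment ends found joined. All maps came from CD4+ Th1 cells, a class of helper T cell, from spleens of male C57BL/6 mice, activated with anti-CD3 (1 µg/ml, 3 days) and expanded with IL-2 (20 ng/ml). Chromatin was cut with Bgl II in the ensemble map of a cell population, in cells 1 to 7, 9 and 10 and, by its file name, in the pooled single-cell map, and with Dpn II in cell 8. No label gives the age of the mice or says that the cells came from separate animals or cultures, so the spread and p-values describe these cells alone and may be technical, and with no expression measured the cell type could not be checked against markers. The 2 copies of a chromosome cannot be told apart in these maps.

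The used trans contacts numbered 21821497 in the ensemble, 373809 in the pool, 2265 in cell 8 and 1440 to 5837 (median 1774) in the 9 Bgl II cells. The pool held every 1 of the 31692 trans contacts of the 9 cells, so pool values are also given for the 348092 used contacts that remained without them. The 10 pairs among the nucleolus organiser chromosomes had 659843 contacts in the ensemble, 14128 in the pool, 52 in cell 8 and 39 to 223 (median 80) in the 9 cells. They made up 3.02% of used contacts in the ensemble and 3.78% in the pool.

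The first question was whether the 5 chromosomes met each other more often than their general tendency to form trans contacts would give. Expected contacts came from each chromosome's own trans total in the same map, so a chromosome rich in trans contacts gains no excess from that alone. The contacts among the 5 are a part of those totals, and the ratio of observed to expected contacts therefore understates an excess. Keeping every total also ties the sets to each other. The 91 pairs must depart from expected by the same number of contacts as the 10 pairs, and the mixed pairs the opposite way. The larger count of the 91 pairs holds their ratio nearer 1, so it is not an independent comparison. In the ensemble the 10 pairs lay slightly above expected, at 659843 contacts against 637759, a ratio of 1.03 (95% Poisson interval 1.03 to 1.04). The ratio was 1.00 over the 91 pairs of the other autosomes and 0.994 over the mixed pairs. In the pool the 10 pairs had a ratio of 1.06 (1.05 to 1.08), against 1.00 and 0.987, and without the 9 cells it was 1.07 (1.05 to 1.09). The log2 excess, the difference between the log2 ratios of the 10 pairs and of the 91, was 0.05 in the ensemble and 0.08 in the pool. With expected counts from the plain product of totals, which does not allow for a chromosome having no trans contacts with itself, it was -0.0185 in the ensemble and 0.0350 in the pool, so the direction in the ensemble turned. Each is 1 map with no replicate, and Poisson intervals cover counting error only.

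Single cells differed widely and had no common direction. Cell 6 held 79 contacts among the 5 chromosomes against 44.0 expected, a ratio of 1.80 (1.42 to 2.24), and cell 1 held 141 against 83.2, a ratio of 1.69 (1.43 to 2.0). Cell 9 was near expected, with 63 contacts against 57.8 (1.09, 0.838 to 1.40). The other 6 Bgl II cells had fewer contacts than expected. The ratio was 0.926 in cell 2 (223 contacts), 0.915 in cell 10 (56), 0.854 in cell 5 (80) and 0.844 in cell 4 (114). It was lowest in cell 7, with 39 contacts at 0.743 (0.528 to 1.02), and in cell 3, with 127 at 0.742 (0.618 to 0.882). Cell 8, cut with Dpn II, had 52 contacts and a ratio of 0.780 (0.583 to 1.02). Counting intervals of cells 1, 3 and 6 left out 1, cells 1 and 6 above it and cell 3 below.

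Over the 9 Bgl II cells the ratio was 1.07 ± 0.399 (SD, n = 9), and over the 91 pairs of the other autosomes it was 1.01 ± 0.0252 (SD, n = 9). The small spread over the 91 pairs follows from the fitted totals and is no independent measure of noise. The log2 excess was 0.01 ± 0.44 (SD, n = 9), above 0 in 3 cells and below 0 in 6. This mean was far smaller than the SD between cells. It could not be told from 0 (exact sign-flip permutation test over 9 cells, two-sided, p = 0.938, adjusted over 2 tests p = 0.938, where the smallest possible p is 0.00391). The sign of so small a mean was not stable. It was -0.0718 with a factor for chromosome length, -0.0287 from 23 Mb on, and -0.0255 with contacts summed over the 9 cells. Without cell 1 it was -0.0729, without cell 6 -0.0869 and without cell 9 -0.00248. With cell 8 added it was -0.0247, and without chromosome 18 it was 0.136. At 39 to 223 contacts a cell, an excess of the size seen in the ensemble or pool was not detectable in any 1 cell.

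**Figure D1:**
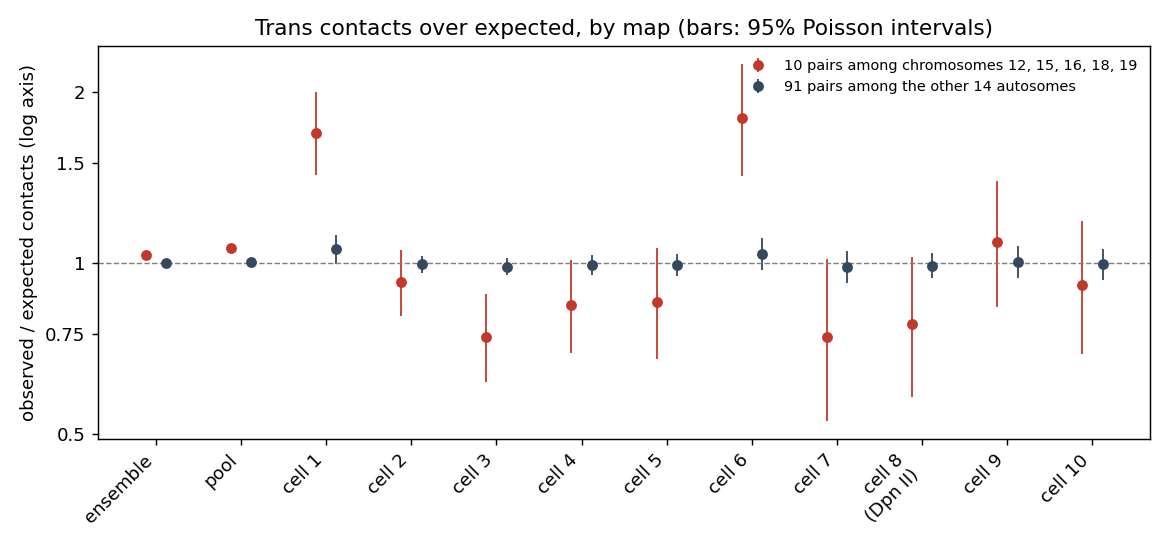
Observed over expected trans contacts (log axis) in each of the 12 maps, for the 10 pairs among chromosomes 12, 15, 16, 18 and 19 (red) and the 91 pairs among the other 14 autosomes (dark), with 95% Poisson intervals. Cells 1 and 6 stand at 1.69 and 1.80, cell 3 at 0.742, and the ensemble and pool at 1.03 and 1.06. The fitted totals tie the dark points to the red ones and hold them nearer 1.

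Of the 10 pairs, chromosomes 15 and 19 stood out in the population map. They had 60766 ensemble contacts against 53570 expected, a ratio of 1.13 (1.13 to 1.14), the highest of all 171 autosome pairs. The next were chromosomes 11 and 19 (1.12), 11 and 17 (1.11), and 11 and 15 (1.11), none of them a pair of nucleolus organiser chromosomes, and the lowest was chromosomes 2 and 19 (0.908). In the ensemble 2.34% of all autosome pairs reached 1.1 times expected, 4 of 171, and 1 of the 10 did. Contacts above expected were seen for 9 of the 10 pairs, where 47.4% of all autosome pairs lay above expected.

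The other members followed chromosomes 15 and 19 with smaller ratios. Chromosomes 16 and 19 had an ensemble ratio of 1.08 (rank 5 of 171), chromosomes 18 and 19 of 1.06 (rank 8), 16 and 18 of 1.04 (rank 14), and 12 and 19 of 1.04. The ratio was 1.02 for chromosomes 12 and 16, and 1.01 for each of 12 and 18, 15 and 16, and 12 and 15. Chromosomes 15 and 18, at 0.998 (0.991 to 1.01), could not be told from 1. The 4 pairs with chromosome 19 thus took 4 of the 5 highest places among the 10, and chromosome 19 is the shortest autosome.

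The order of the pairs was different in the pool. Chromosomes 16 and 18 led the 10, with 1558 contacts against 1308 expected, a ratio of 1.19 (1.13 to 1.25) and rank 3 of 171, behind 11 and 19 (1.31) and 17 and 19 (1.20). Chromosomes 15 and 19 had 1306 contacts and a ratio of 1.17 (1.10 to 1.23), 15 and 18 had 1.13 (1.07 to 1.18), and 12 and 19 had 1.10. The ratios of 16 and 19, 18 and 19, 12 and 18, and 12 and 16 were 1.08, 1.06, 1.04 and 1.02, and chromosomes 15 and 16 (0.981) and 12 and 15 (0.946) lay below 1. At least 1.1 times expected was reached by 4 of the 10 pairs and by 11.7% of all autosome pairs, and 8 of the 10 lay above expected, as did 43.9% of all autosome pairs. Without the contacts of the 9 cells 8 of the 10 lay above expected and 48.5% of all, with 16 and 18 at 1.20, 15 and 19 at 1.14, and 15 and 18 at 1.12.

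**Figure D2:**
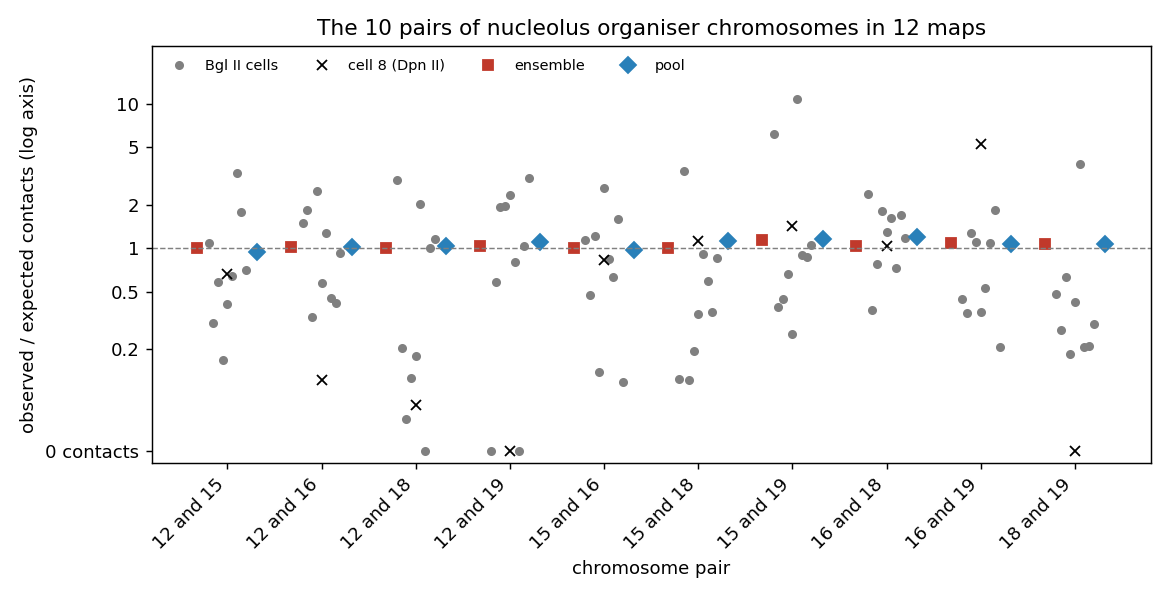
Observed over expected contacts (log axis) of each of the 10 pairs in the 9 Bgl II cells (grey), cell 8 (cross), the ensemble (red) and the pool (blue), with points on the lowest line standing for 0 contacts. Single cells spread from 0 to 10.7 around ensemble and pool values that lie between 0.946 and 1.19.

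The cell values of each pair spread far more than the pairs differed in the ensemble or pool. Chromosomes 15 and 19 had 24 contacts against 2.24 expected in cell 6, a ratio of 10.7 (6.86 to 15.9), and 61 against 9.93 in cell 1, a ratio of 6.15 (4.70 to 7.89). The pair ranked 1 of all 171 in cell 6 and 2 in cell 1. In the other 7 Bgl II cells the same pair lay between 0.258 (cell 5, 2 contacts) and 1.06 (cell 10, 5 contacts), and the median over the 9 cells was 0.878. The high value of chromosomes 15 and 19 in these single cells thus came from 2 of the 9.

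Among the 9 Bgl II cells, chromosomes 15 and 18 lay above expected in cell 2 alone, where they had 105 contacts against 30.5 expected, a ratio of 3.44 (2.81 to 4.16). In the other 8 Bgl II cells they had 1 to 5 contacts each, with ratios from 0.123 to 0.907, and cell 8 had 10 at 1.12. Chromosomes 18 and 19 had 10 contacts against 2.63 in cell 6 (3.80, 1.82 to 6.99) and 1 to 8 in each of the others, with ratios from 0.186 to 0.634. For both pairs 1 cell lay above expected and 8 below.

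Chromosomes 16 and 18 lay above expected in more of the cells than any other of the 10 pairs, mostly within counting error. Their ratio ran from 0.376 (cell 2, 9 contacts) through a median of 1.29 to 2.38 (cell 1, 13 contacts). Cells 1, 4, 5, 6, 9 and 10 lay above expected, and cells 2, 3 and 7 below. Counting intervals left out 1 in cells 1 and 4, above it, and in cell 2, below it. Summed over the 9 cells, the pair had 103 contacts against 94.5 expected, a ratio of 1.09. An autosome pair above expected in 6 or more of the 9 cells was found in 7.02% of all cases, 12 of 171, and chromosomes 16 and 18 were the 1 such pair among the 10. The share among the 10 was thus near the background.

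The remaining pairs varied widely, and most of their medians lay below expected. Median ratios over the 9 cells were 1.04 for chromosomes 12 and 19 (range 0 to 3.08), 0.922 for 12 and 16 (0.336 to 2.50), 0.844 for 15 and 16 (0.119 to 2.60) and 0.642 for 12 and 15 (0.170 to 3.30). They were 0.531 for chromosomes 16 and 19 (0.208 to 1.85), 0.298 for 18 and 19, and 0.205 for 12 and 18 (0 to 2.97). Summed over the 9 cells, 18 and 19 had 32 contacts against 64.7 expected (0.495). Chromosomes 12 and 18 had 53 against 102 (0.518), and 12 and 15 had 82 against 123 (0.668). The summed ratios were 0.838 for 16 and 19, 0.916 for 15 and 16, 1.24 for 12 and 16, and 1.31 for 12 and 19. No contact was found for 12 and 19 in 2 cells and for 12 and 18 in 1 cell, a count of 0 that allows up to 3 contacts. Over the 90 combinations of cell and member pair, 12 reached at least 2 times expected, 13.3%, against 12.9% of the 1539 combinations over all autosome pairs. The share of strongly enriched pairs among the nucleolus organiser chromosomes was thus near that of autosome pairs in general.

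The pair with the highest ratio, among pairs with at least 5 contacts, accounted for between 14.3% (cell 9) and 47.1% (cell 2) of all contacts among the 5. Chromosomes 15 and 18 gave 47.1% of the contacts among the 5 in cell 2, and chromosomes 15 and 19 gave 43.3% in cell 1 and 30.4% in cell 6. Without that leading pair the ratio of the rest was 1.09 in cell 1 and 1.32 in cell 6, and 0.561 in cell 2. The ratio of cell 6 over its other 9 pairs thus stayed above 1, though no counting interval was computed for it. Chromosomes 18 and 19, with 10 contacts against 2.63, were among those pairs. The leading pairs of cells 3 and 10 were chromosomes 12 and 19 (28 contacts at 1.92 and 15 at 3.08 times expected), and that of cell 4 was 12 and 16 (36 at 2.50). In cell 5 it was 15 and 16 (29 at 2.60), in cell 7 chromosomes 12 and 15 (16 at 3.30), and in cells 8 and 9 chromosomes 16 and 19 (16 at 5.28 and 9 at 1.85). Over the 10 cells 7 different pairs led.

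The interfaces of cells 1, 2 and 6 ran along the arms and were not limited to the centromere side. In cell 1 the contacts of chromosomes 15 and 19 lay between 21.1 and 103 Mb on chromosome 15 (median 76.2 Mb) and between 17.8 and 60.9 Mb on chromosome 19 (median 43.6 Mb). In cell 6 the medians were 78.1 Mb on chromosome 15 and 31.1 Mb on chromosome 19. In cell 2 the 105 contacts of chromosomes 15 and 18 had medians of 57.7 and 54.1 Mb. Leading pairs of other cells lay nearer the start. Medians on chromosomes 16 and 19 were 30.4 and 27.1 Mb in cell 9, and 36.1 and 25.7 Mb in cell 8. On 1 chromosome only, the median was 34.4 Mb on chromosome 12 in cells 3 and 7, and 27.4 Mb on chromosome 16 in cell 5. In cells 4 and 10 the medians on chromosome 12 were 81.7 and 84.1 Mb. Contacts of an interface were partly grouped: with contacts no more than 1 Mb apart on both chromosomes merged into 1, the 61 contacts of cell 1 formed 47 groups, the 105 of cell 2 formed 79 and the 24 of cell 6 formed 19. Merging in this way over all pairs left the mean log2 excess of the 9 cells at 0.01.

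The 5 chromosomes are also short, and length moved with the result. Taking the last contact position as length, they measured 61.3 to 121 Mb (median 98.3), and the other 14 autosomes 95.3 to 197 Mb (median 141). Of their ensemble ends, 52.5% to 56.7% were in trans contacts, against 47.3% to 53.9% on the other 14. Across the 171 pairs the ensemble ratio followed the product of centred log lengths, which is positive where both chromosomes are long or both short (Pearson r = 0.668, Spearman rho = 0.713; pool 0.428 and 0.424). The pairs share chromosomes and library, so these are descriptions with no test. With a factor for this product fitted on the other 161 pairs, the ratio of the 10 pairs was 1.01 in the ensemble and 1.03 in the pool.

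The 5 shortest of the other autosomes, chromosomes 9, 11, 13, 14 and 17, gave a direct comparison, although their median length of 122 Mb is above the 98.3 Mb of the 5. Among themselves they had a ratio of 1.02 in the ensemble, 1.04 in the pool and 1.02 ± 0.315 (SD, n = 9) in the cells. The ratio of the nucleolus organiser chromosomes was higher than theirs in 3 of 9 cells. Against these 5 the log2 excess was 0.0171 in the ensemble and 0.0375 in the pool, where against all 14 it was 0.0469 and 0.0836. What length and the nucleolus organisers each contribute cannot be told apart for chromosomes 18 and 19, which are shorter than any of the other 14.

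**Figure D3:**
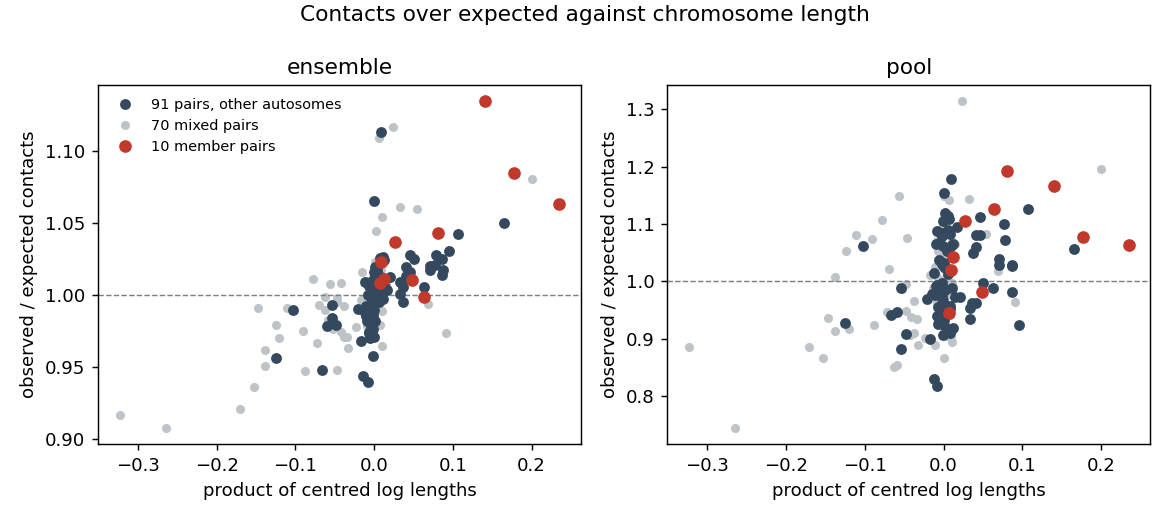
Observed over expected contacts of 171 autosome pairs in the ensemble (left) and pool (right) against the product of centred log chromosome lengths, with the 10 pairs among chromosomes 12, 15, 16, 18 and 19 in red. In the ensemble the red points rise with the product as the others do (r = 0.668 over all 171), with chromosomes 15 and 19 at the top at 1.13.

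Each autosome's contacts with the 5 were also summed. Chromosome 19 had the highest ratio of the 19 autosomes in the ensemble (1.08), followed by chromosomes 16 (1.03), 11 (1.03), 15 (1.03), 18 (1.02), 9 (1.02), 13 (1.02) and 12 (1.02). Chromosomes 11, 9 and 13 thus ranked among the nucleolus organiser chromosomes, and the lowest were the longest, chromosomes 2 (0.966) and 1 (0.971). In the pool chromosomes 18 (1.11), 19 (1.11) and 16 (1.06) led, ahead of 17 (1.06), 11 (1.06), 15 (1.04) and 12 (1.02). In the 9 cells the 5 had means of 1.29 ± 0.899 for chromosome 19, 1.17 ± 0.663 for 15, 1.06 ± 0.308 for 16, 0.983 ± 0.260 for 12 and 0.922 ± 0.530 for 18 (SD, n = 9). Each of these cell means lay within 1 SD of 1.

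The second question was where along the chromosome these contacts lay. On the 5 chromosomes, ends with a partner on another of the 5 lay closer to the chromosome start than ends with a partner on the other 14. The difference in mean position, weighted over the 5 chromosomes, was -0.782 Mb in the ensemble, -1.74 Mb in the pool and -1.71 Mb in the pool without the 9 cells. In the ensemble it was -1.09 Mb on chromosome 12, -1.07 Mb on chromosome 15, -1.06 Mb on chromosome 16, -0.372 Mb on chromosome 18 and -0.0700 Mb on chromosome 19. All 5 lay below 0 in the pool as well, from -0.489 Mb on chromosome 19 to -2.71 Mb on chromosome 16.

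In the 9 Bgl II cells the shift was -3.72 Mb ± 6.32 (SD, n = 9), with 7 cells below 0 and 2 above. It ran from -13.3 Mb in cell 7 to 6.61 Mb in cell 1, with a median of -3.95 Mb. With medians in place of means it was -7.09 Mb (exact sign-flip permutation p = 0.0586, adjusted p = 0.117). The mean shift of -3.72 Mb could not be told from 0 (exact sign-flip permutation test, two-sided, p = 0.121, adjusted over 2 tests p = 0.242). Cells 1 and 6, which had the highest contact ratios, were those with a shift above 0 (6.61 and 3.35 Mb). Cell 8 was at -7.59 Mb.

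The same shift was found on chromosomes that carry no nucleolus organiser. On the other 14 autosomes, ends with a partner among the 5 lay closer to the chromosome start by a larger distance, with -1.79 Mb in the ensemble, -4.17 Mb in the pool and -5.55 Mb ± 5.82 (SD, n = 9; 8 of 9 below 0) in the cells. The shift on the 5 minus that on the other 14 was 1.83 Mb ± 8.74 (SD, n = 9). With partners on the 5 shortest other autosomes in place of all 14, the shift on the 5 was -0.453 Mb in the ensemble, -0.632 Mb in the pool and -3.25 Mb ± 7.45 (SD, n = 9) in the cells. The shift was thus smaller with these shorter partners in the ensemble and pool, while in the cells it changed little against its spread. The cause was not tested.

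Profiles in regions of 10 Mb were higher toward the start of the arms than toward their ends. For these profiles contacts from 3 Mb on were used, with expected counts from the trans total of each region. Shorter chromosomes drop out along the way. Of the 5, 4 remained at 63 to 73 Mb and 1 at 113 to 123 Mb, and of the other 14, 1 remained at 193 Mb and beyond. The steps therefore sum over different chromosomes, and a fall between them mixes position with chromosome. In the ensemble, ends on the 5 chromosomes had a ratio of contacts with the other members of 1.05 at 3 to 13 Mb, 1.07 at 13 to 23, at 23 to 33 and at 33 to 43 Mb, and 1.05 at 53 to 63 Mb. It was 1.00 at 73 to 83 Mb and 0.988 at 93 to 103 Mb. Ends on the other 14 autosomes were also lower far out, from 1.07 at 3 to 13 Mb through 1.03 at 53 to 63 Mb to 0.981 at 93 to 103 Mb and 0.886 at 193 Mb and beyond. In the pool the 5 were highest at 13 to 23 Mb (1.18) and at 0.938 at 83 to 93 Mb, where the other 14 were at 1.12 and 0.978. The pool curve of the 5 had a further high value at 63 to 73 Mb (1.15).

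**Figure D4:**
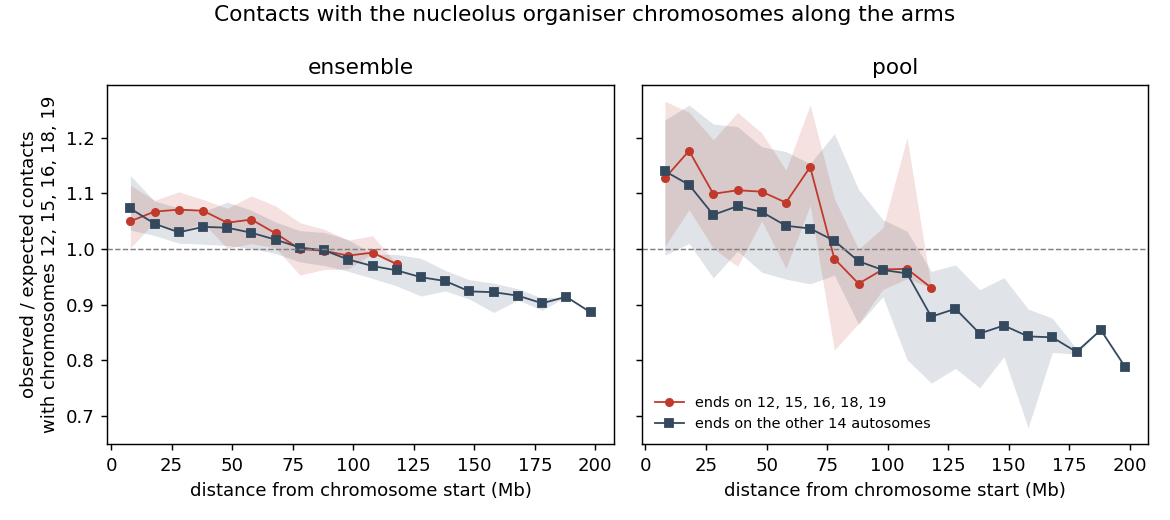
Observed over expected contacts with chromosomes 12, 15, 16, 18 and 19, in steps of 10 Mb from the chromosome start, for ends on those 5 (red) and on the other 14 autosomes (dark), in the ensemble (left) and pool (right), with bands from the lowest to the highest chromosome. In the ensemble the red curve rises from 1.05 to 1.07 before it falls, and the dark curve starts at 1.07. The ensemble bands overlap except at 103 to 113 Mb, where 2 of the 5 chromosomes remain. Fewer chromosomes enter the steps farther out.

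Contacts with both ends near the centromere had another order of the sets in the first 10 Mb than farther out, in maps that each lack a replicate. With both ends at 3 to 13 Mb, the 10 pairs were above expected in the ensemble, at 1.14 (1.12 to 1.16), but less so than the 91 pairs of the other autosomes (1.39, 1.38 to 1.40), their 5 shortest (1.51, 1.48 to 1.54) and the mixed pairs (1.25, 1.24 to 1.26). Pool values were 1.50 (1.36 to 1.65) for the 10 pairs, 1.72 (1.66 to 1.79) for the 91, and 1.46 for the mixed pairs. At 13 to 33 Mb the order turned. The 10 pairs then had 1.16 (1.15 to 1.17) in the ensemble against 1.11 (1.10 to 1.11) for the 91 and 1.10 for the 5 shortest. The pool gave 1.32 (1.23 to 1.41) against 1.25 (1.22 to 1.27) and 1.25. This order was lost when certain single chromosomes were left out. Without chromosome 19 the ratio was 1.08 in the ensemble and 1.23 in the pool, and without chromosome 18 it was 1.20 in the pool, each below the 91 pairs. Without chromosome 15 the pool ratio was 1.25, level with the 91 pairs. In the ensemble the order held without 12 (1.16), 15 (1.14), 16 (1.28) or 18 (1.16), and in the pool without 12 (1.43) or 16 (1.50).

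Farther out the ratios were closer to each other. With both ends at 33 to 53 Mb the ensemble ratios were 1.08 (1.07 to 1.09) for the 10 pairs, 1.06 (1.05 to 1.06) for the 91 and 1.08 for the 5 shortest. Beyond 53 Mb the 10 pairs, at 1.02, lay below the 91 (1.04) and above the 5 shortest (1.01). In the 9 cells the 10 pairs had 1.10 ± 0.660 at 3 to 13 Mb and 1.49 ± 0.893 at 13 to 33 Mb, against 1.19 ± 0.422 and 1.23 ± 0.189 for the 91 pairs (SD, n = 9). The 10 pairs were higher in 5 of 9 cells at 3 to 13 Mb and in 4 of 9 at 13 to 33 Mb, so that neither difference exceeded the spread between cells. Cell ratios of the 10 pairs rest on 0 to 5 contacts a cell at 3 to 13 Mb and 1 to 10 at 13 to 33 Mb. At such counts the intervals of the 10 pairs included 1 in every Bgl II cell but cell 9 at 13 to 33 Mb. That cell had 8 contacts against 2.30 expected (3.48, 1.50 to 6.86). How much of the difference between cells is counting error was not tested.

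**Figure D5:**
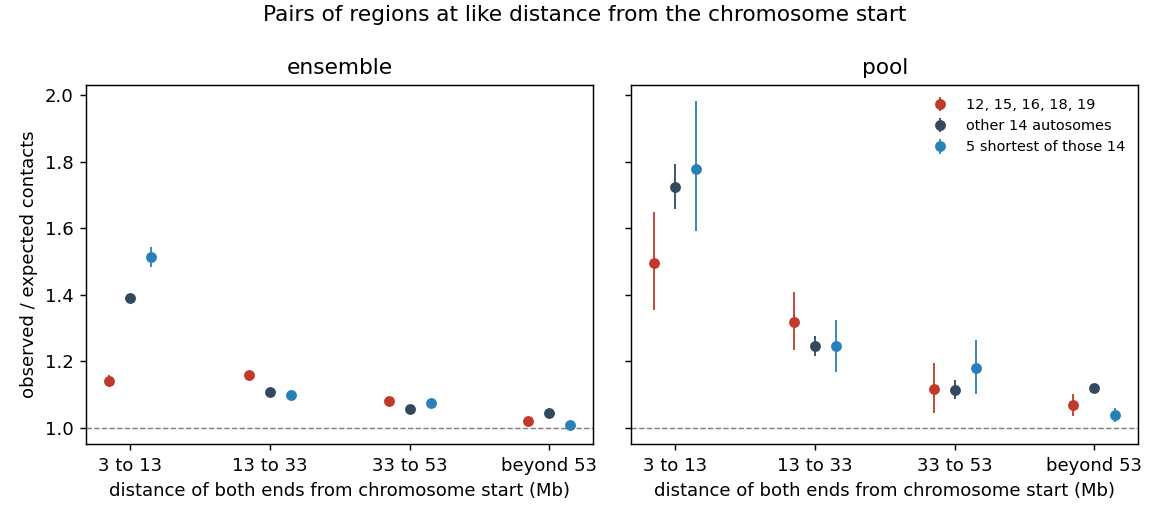
Observed over expected contacts with both ends at the stated distance from the chromosome start, for the 10 pairs among chromosomes 12, 15, 16, 18 and 19 (red), the 91 pairs among the other 14 autosomes (dark) and the 10 pairs among their 5 shortest (blue), with 95% Poisson intervals. In the ensemble (left) the red point lies lowest at 3 to 13 Mb (1.14 against 1.39 and 1.51) and highest at 13 to 33 Mb (1.16 against 1.11 and 1.10).

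At 3 to 13 Mb, ratios of the single pairs in the ensemble ran from 1.02 (chromosomes 12 and 19) through a median of 1.16 to 1.40 (15 and 18), and over the 91 pairs from 1.12 through 1.36 to 1.73. Of the 10 pairs 6 reached 1.1 times expected, against 92.4% of all autosome pairs. In rank among the 171, chromosomes 15 and 18 stood at 39 and the other 9 pairs between 116 and 164. Leaving out each of the 5 in turn kept the ensemble ratio between 1.09 and 1.23, below the 1.39 of the 91 pairs. In the pool 9 of the 10 pairs reached 1.1 times expected, against 87.7% of all, with a median of 1.42 against 1.65 over the 91 pairs.

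At 13 to 33 Mb, 7 of the 10 pairs reached 1.1 times expected in the ensemble, against 60.8% of all autosome pairs, and 7 of 10 in the pool, against 71.3%. These shares are near the background. Chromosomes 15 and 19 (1.41, rank 4 of 171), 18 and 19 (1.28, rank 8), 12 and 19 (1.28, rank 9), 15 and 18 (1.28, rank 10) and 12 and 15 (1.26, rank 15) were high in the ensemble. Chromosomes 12 and 18 had 1.15 (rank 68), and the pairs of chromosome 16 had 1.15 with 19 (rank 65), 1.03 with 12 (136), 1.01 with 18 (144) and 0.977 with 15 (152). Without chromosome 16 the ratio over the remaining 6 pairs was 1.28 in the ensemble and 1.50 in the pool. In the pool the highest were 15 and 18 (2.14), 15 and 19 (1.75) and 16 and 18 (1.40), followed by 18 and 19 (1.34) and 16 and 19 (1.33), and the lowest were 15 and 16 (0.868) and 12 and 16 (0.717). The pairs of chromosome 16 thus took high and low places in the pool.

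The narrower stretch from 13 to 23 Mb gave the region pairs with the highest ensemble ratios. Over the 729 pairs of 10 Mb regions between the 5 chromosomes the median ratio was 1.03, with a range from 0.643 to 1.82, and 59.7% lay above 1. The highest was chromosome 15 from 13000001 to 23000000 with chromosome 19 from 13000001 to 23000000 (mm9), which had 615 ensemble contacts against 338 expected, a ratio of 1.82 (1.68 to 1.97). In the pool it had 42 contacts against 14.6, a ratio of 2.87 (2.07 to 3.88). The same region of chromosome 15 with chromosome 18 from 13000001 to 23000000 had 397 ensemble contacts against 258 (1.54, 1.39 to 1.70) and 41 pool contacts against 10.7 (3.82, 2.74 to 5.18). The pool values come from other libraries than the ensemble values. Without the 9 cells they were 3.07 and 4.0.

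Next came chromosome 15 from 23000001 to 33000000 with chromosome 19 from 13000001 to 23000000, at 943 ensemble contacts against 618 (1.53) and a pool ratio of 1.66, and chromosome 12 from 43000001 to 53000000 with chromosome 15 from 13000001 to 23000000, at 319 against 211 (1.51) and a pool ratio of 1.93. The last of the 5 highest joined the ends of 2 arms, chromosome 15 from 103000001 to 103466630 and chromosome 16 from 93000001 to 98303892, where 91 contacts stood against 60.7 (1.50). There 1 square of 1 Mb by 1 Mb held 21 of the 91 contacts. Both regions of this pair are shorter than 10 Mb and hold few such squares, so a large share in 1 square follows partly from size. In the first 4 region pairs, all of full size, no such square held more than 2.97% of the ensemble contacts. The shares of the fifth and of the first 4 are therefore not comparable. The 615 contacts of the first used 572 different ends on chromosome 15 and 570 on chromosome 19, so many ends contributed. Which genes lie in these regions was not analysed here. In the 9 single cells the first region pair had 0 contacts, against 0.939 expected, a count that allows up to 3, and the second had 1 against 0.747, so that these regions were not measurable at single-cell depth.

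Among all 171 pairs of 13 to 23 Mb regions, the members took both ends of the range. In the ensemble chromosomes 15 and 19 ranked 1, 15 and 18 ranked 4, 18 and 19 (1.48) at 7 and 12 and 19 (1.38) at 14. The 4 pairs with chromosome 16 ranked 151 (with 12, 1.07), 155 (with 19, 1.05), 166 (with 18, 0.962) and 170 (with 15, 0.928). Pool ranks were 1 for 15 and 18 and 2 for 15 and 19. Chromosomes 15 and 16 were at rank 170, with 10 pool contacts (0.610, 0.292 to 1.12). Chromosomes 12 and 16 were at 167, with 9 (0.638, 0.292 to 1.21), so neither low pool ratio could be told from 1. The median over the 10 pairs was 1.20 in the ensemble, the same as over the mixed pairs (1.20) and near the 91 pairs (1.19), with 1.25 over the 5 shortest. In the pool the 10 pairs had a lower median, 1.18, than the mixed pairs (1.31), the 91 pairs (1.42) and the 5 shortest (1.38).

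Partners outside the 5 had high values here as well. With the 13 to 23 Mb regions of the other 14 autosomes, that of chromosome 15 had ensemble ratios from 1.00 through a median of 1.24 to 1.60, that of chromosome 19 from 1.10 through 1.32 to 1.62, and that of chromosome 18 from 1.06 through 1.20 to 1.37. The value of 15 with 19 exceeded all 14 of either chromosome, and those of 18 with 15 and with 19 exceeded all 14 of chromosome 18. The region of chromosome 16 had a median of 1.00 with the other 14, and 1.01 with the 4 members. In the pool these medians were 1.11 and 0.816.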

How the data were processed

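Contacts were deposited by the authors as pairs of chromosome and position in bp, per the file headers, with no read number. Positions are on mm9, per the submitters' processing notes. Which aligner and filters were used, and how many cells entered the pool, was not stated in the sources used here. Expected counts were computed by fitting 1 weight per chromosome (or per 10 Mb region) so that expected trans totals equalled the observed ones, with no contacts within a chromosome. The 10 pairs and the comparison lists were chosen with earlier results of these data known. Regions were named by rule: all 10 pairs, the highest and lowest ensemble pair, each cell's leading member pair with at least 5 contacts, and the 5 region pairs with the highest ensemble ratio. Others, such as pairs at the next ranks and those of chromosome 16, were named after their values were seen. The first 10 Mb, from 3 Mb, entered the position profiles, the classes by distance from the start and 1 alternative window. Cell means were tested by exact sign-flip permutation over 9 cells (512 flips), two-sided, with Benjamini-Hochberg adjustment over 2 tests at 0.05. The excess and shift calculations were tested on simulated data. Work was done in Python 3.11.15 (pandas 2.3.3, numpy 2.4.6, matplotlib 3.10.9, scipy 1.17.1).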

Additional observations from a re-analysis of the deposited data

Results flagged for a closer look

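Values were screened for a single outlying cell in 18 sets, each over the cells cut with Bgl II, and 2 sets had one. About 1 in 20 sets would show this by chance. The ratio of chromosomes 15 and 18 was 3.44 in cell 2, and the next highest cell had 0.907. The ratio of chromosomes 18 and 19 was 3.80 in cell 6, on 10 contacts, and the next highest cell had 0.634.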

How the results depend on the processing

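The log2 excess in single cells had a mean of 0.01 and passed no test under any setting (smallest adjusted p = 0.371, exact sign-flip permutation over 9 cells), but its sign turned. It was -0.0369 with the plain product of totals, -0.0718 with a length factor, -0.0287 from 23 Mb, -0.0635 without chromosome 15, -0.0645 without chromosome 16, -0.0682 without chromosome 19, -0.0247 with the Dpn II cell added and -0.0255 with contacts summed. The largest value was 0.136, without chromosome 18. With a cell left out it ran from -0.0869 to 0.0634. In the ensemble the excess of 0.0469 was -0.0185 with the plain product, 0.0242 with a length factor, 0.0386 from the chromosome start and 0.0171 against the 5 shortest other autosomes. Without chromosomes 12, 15, 16, 18 and 19 it was 0.0698, 0.0580, 0.0520, 0.0590 and 0.0270. In the pool the excess of 0.0836 stayed above 0 in 13 settings, at 0.0350 with the plain product, 0.0449 with a length factor, 0.0375 against the 5 shortest, 0.134 without chromosome 12 and 0.115 without chromosome 15. The length factor and the shortest autosomes were defined by chromosome length, and the cause of these and the other changes was not tested.

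The position shift in single cells, -3.72 Mb, was -7.09 Mb with medians (exact sign-flip permutation, adjusted p = 0.117) and kept its sign, except that the shift on the 5 minus that on the other 14 was 1.83 Mb, and with a cell left out ran from -5.02 to -2.52 Mb. In the ensemble the shift of -0.782 Mb was -1.12 Mb with medians, -0.690 from 23 Mb, -0.453 with partners on the 5 shortest, and -0.878, -0.691, -0.925, -0.890 and -0.554 without chromosomes 12, 15, 16, 18 and 19. In the pool the shift of -1.74 Mb was -3.19 Mb with medians, -1.26 from 23 Mb, -2.49 without chromosome 12, -1.06 without 15 and -0.632 with partners on the 5 shortest. The shortest partners and the difference between chromosome sets were chosen after the data were seen. Totals of 10 Mb regions give the same chromosome sums as chromosome totals by construction. No paired analysis was possible because no comparison was made between groups of samples.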
